A study of Homo sapiens with 4 samples.

Results

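The genes described here are the 10 SMADs and feedback regulators of TGF-beta signalling SMAD2, SMAD3, SMAD4, SMAD6, SMAD7, SMURF1, SMURF2, SKI, SKIL and PMEPA1. Their members are the 40 probe sets, of 54675 on the array, that the platform annotation names with exactly one of these symbols, and they stand for 10 of 19775 named genes. The cells were SCP2, a bone-colonising subline of the human breast cancer line MDA-MB-231. They carried either a vector control or a DLC1 overexpression construct, DLC1 being a GTPase-activating protein and known tumour suppressor, and each kind was profiled without and with TGF-beta, on 1 array for each of the 4 groups. The sources used here do not give the dose or duration of TGF-beta, the promoter of the construct or the number of clones. With 1 array a group there is no replicate spread, so no p-value is given, and a difference of at least 2-fold, a log2 difference of 1, counts as a rise or a fall.

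TGF-beta signals through a receptor kinase complex that phosphorylates SMAD2 and SMAD3, which join SMAD4 and enter the nucleus to act on target genes. Several proteins restrain the pathway, and some of their genes are themselves targets. SMAD6 and SMAD7 are inhibitory SMADs, and SMURF1 and SMURF2 are ubiquitin ligases that SMAD7 brings to the receptor. SKI and SKIL (also called SnoN) are co-repressors that bind the SMADs. PMEPA1 is a membrane protein that keeps SMAD2 and SMAD3 from the receptor. In breast cancer cells that colonise bone, where the matrix stores TGF-beta, the pathway is known for inducing genes that act on bone.

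Intensities below are on a linear scale in arbitrary units, and a level of one probe set is not comparable with that of another. Array medians were 0.38 to 0.39. A probe set was kept if its highest value reached the median of all values, 0.38, which 29 of the 40 member probe sets and the brightest set of all 10 genes did. The 11 others read between 0.07 and 0.34 on every array. VIM and CD44, with the simple keratin genes KRT8 and KRT18, were listed as expressed in a mesenchymal-like breast carcinoma line. All were kept, with a summed intensity of 289 to 359, of which VIM read 160 to 205. Of 5 luminal or epithelial markers, EPCAM at 5.76 to 7.45, ERBB2 at 1.82 to 2.29 and ESR1 at 0.39 to 0.46 were kept, and CDH1 and PGR, at 0.09 to 0.31, were not. For other cell types, 4 of 6 leukocyte markers had a named probe set and their summed intensity was 1.75 to 2.60, with CD14 at 1.08 to 1.67 and LYZ at 0.17 to 0.45 kept and PTPRC and CD3E, at or below 0.31, not. The 4 endothelial markers summed to 1.5 to 2.08, with PECAM1 at 0.67 to 0.85 and KDR at 0.46 to 0.96 kept and CDH5 and VWF, at or below 0.32, not. The 4 stromal markers summed to 1.09 to 1.27, with PDGFRB at 0.48 to 0.69 kept and DCN, LUM and COL3A1, at or below 0.31, not. The part of such cells in the results was not tested. The DLC1 transcript did not settle the labels. Its brightest probe set, 210762_s_at, read 1.77 in vector, 2.51 in vector with TGF-beta, 3.38 in DLC1 and 3.64 in DLC1 with TGF-beta. The set 224822_at read 1.79, 2.41, 1.44 and 1.69 in the same order, and the dim 220512_at read 0.26, 0.41, 0.18 and 0.19. Both went against the label, so 1 of 3 kept sets was higher with the construct and the arrays are called by their labels.

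The sequences before the start sites of the 3 genes that rose with TGF-beta, and of SMAD6, are shown for their SMAD motifs. SMAD proteins are known to bind the box CAGAC and the palindrome GTCTAGAC, which joins the shorter box GTCT to its reverse complement. RefSeq windows on GRCh38.p14 were found for 9 of the 10 genes, and SKI had none in the table. Each run below holds the 250 bases before the most upstream start site, 5′ to 3′ on the gene's strand, with capitals for a match to either motif on either strand. The SMAD7 window is chr18:48950966-48951215 on the minus strand, the SKIL window chr3:170357465-170357714 on the plus strand, the PMEPA1 window chr20:57711473-57711722 on the minus strand and the SMAD6 window chr15:66701986-66702235 on the plus strand.
SMAD7: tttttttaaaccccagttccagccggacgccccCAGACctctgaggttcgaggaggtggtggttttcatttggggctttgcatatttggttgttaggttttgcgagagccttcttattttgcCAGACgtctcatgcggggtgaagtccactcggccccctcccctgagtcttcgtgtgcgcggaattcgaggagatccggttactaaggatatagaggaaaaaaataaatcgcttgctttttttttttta
SKIL: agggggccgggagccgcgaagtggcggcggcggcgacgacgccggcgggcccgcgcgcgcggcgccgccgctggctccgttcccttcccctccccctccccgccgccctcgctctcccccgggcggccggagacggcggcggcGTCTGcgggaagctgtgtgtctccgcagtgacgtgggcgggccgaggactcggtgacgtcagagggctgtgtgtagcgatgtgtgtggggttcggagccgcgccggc
PMEPA1: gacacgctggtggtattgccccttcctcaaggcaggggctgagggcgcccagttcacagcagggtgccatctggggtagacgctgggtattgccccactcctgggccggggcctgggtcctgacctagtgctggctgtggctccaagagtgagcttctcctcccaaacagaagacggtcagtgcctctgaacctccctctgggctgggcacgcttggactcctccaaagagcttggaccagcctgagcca
SMAD6: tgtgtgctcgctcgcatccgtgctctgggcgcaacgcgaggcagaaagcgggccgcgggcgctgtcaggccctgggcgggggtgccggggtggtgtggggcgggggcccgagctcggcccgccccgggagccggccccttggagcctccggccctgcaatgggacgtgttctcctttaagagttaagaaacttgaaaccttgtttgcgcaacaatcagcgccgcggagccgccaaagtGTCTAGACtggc

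The SMAD7 window holds 2 matches to CAGAC, which begin 217 and 128 bases before the start, and the SKIL window holds 1, on the other strand, 107 bases before it. The most upstream PMEPA1 window holds no match to either motif. PMEPA1 has 4 listed start sites, and 2 of the other windows hold 1 CAGAC each. SMAD7 has 3, of which the second window holds 1 CAGAC and the third none. Over the most upstream windows of the 9 genes, 3 hold CAGAC (SMAD7, SKIL and SMURF1) against 38% of all 35116 windows of this length in the table. Over all 19 windows of the 9 genes, 8 hold it. SMAD3, which did not rise, has 5 listed start sites, and its windows 4 and 5 hold 1 and 3 CAGAC. Of all 35116 windows 1.62% hold 3 or more. Among the 19 windows the palindrome, which does not contain CAGAC, stands only in that of SMAD6, a gene that did not pass 2-fold. It begins 12 bases before the start, and 64 of the 35116 windows, 0.182%, hold it. A match describes letters in the window and shows no binding. Bases outside these windows were not searched, so a motif elsewhere near a gene, SMAD7 included, would be missed.

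The comparison of arrays with and without TGF-beta asks how these regulators respond to the cytokine in each background. PMEPA1, SMAD7 and SKIL rose in both, by 10.96-, 4.92- and 3.15-fold among the vector arrays and by 12.2-, 4.29- and 2.67-fold among those labelled DLC1. No member fell by 2-fold. Of 10 genes, 3 passed 2-fold in each background, where 1.9% of 13137 kept genes did with the vector and 0.898% with the DLC1 label. The median log2 difference of the 10 was 0.40 and 0.49, beside -0.03 and -0.01 over all kept genes. By probe set, 7 of 29 rose with the vector and 6 of 29 with the DLC1 label, beside 1.25% and 0.73% of 24399 kept probe sets that rose. All of these belong to PMEPA1, SMAD7 and SKIL, and probe sets of one gene share their RNA. On the same arrays, the gap between the 3′ and 5′ control probe sets of beta-actin, a sign of RNA integrity, read 3.26 and 2.83 on the log2 scale without and with TGF-beta in vector and 3.11 and 3.03 in DLC1. The gap of GAPDH read 0.39 and 0.38 in vector and 0.35 and 0.39 in DLC1. The part of RNA integrity in these differences was not tested.

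**Figure D1:**
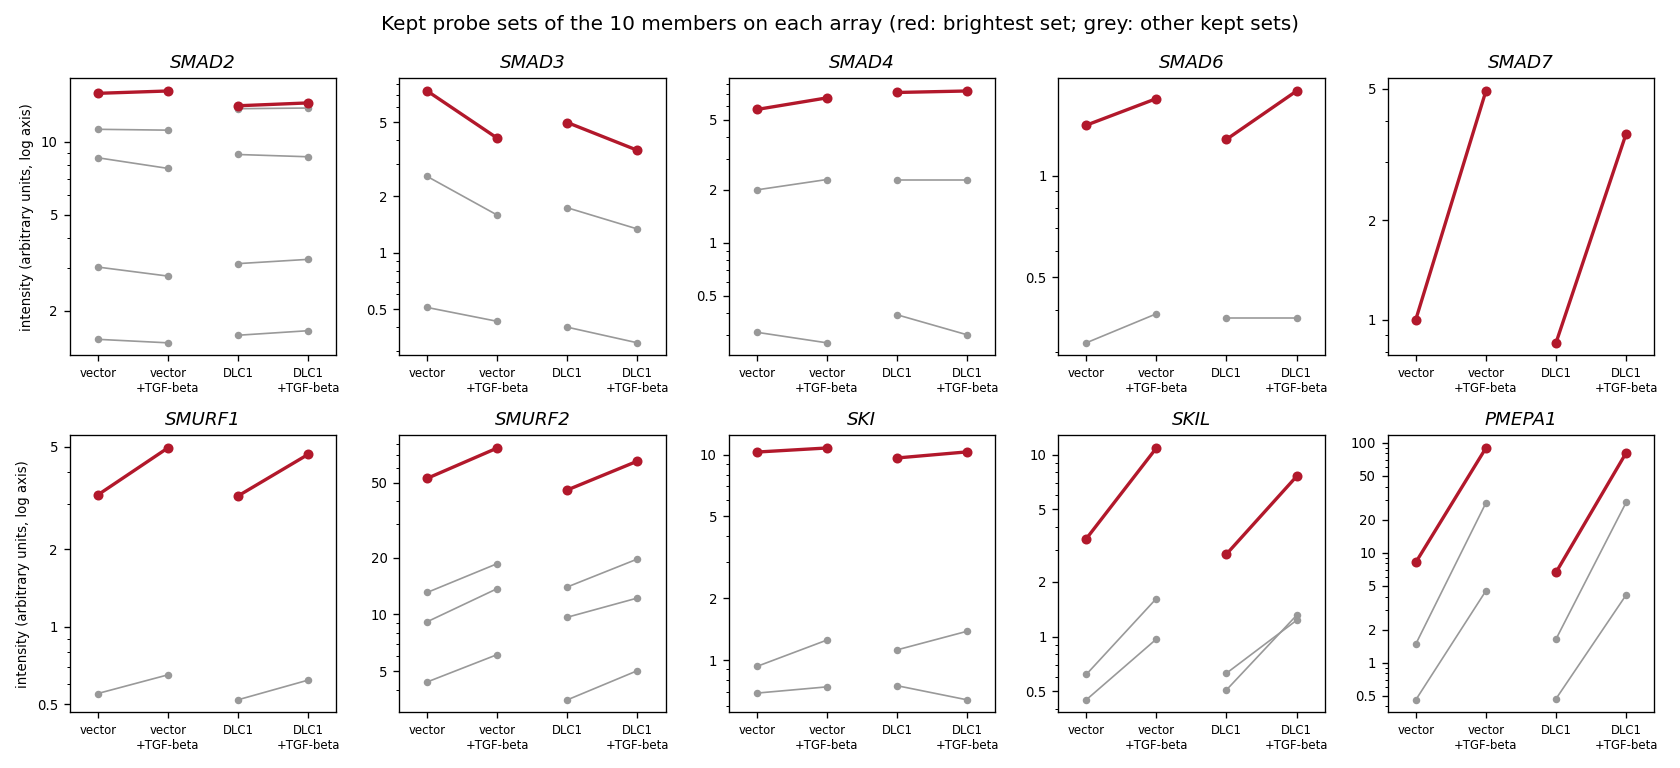
Intensity of every kept probe set of the 10 genes (arbitrary units, log axis, a scale of its own in each panel) on the 4 arrays, 1 array a group, with the brightest set in red and the others in grey and lines joining the arrays without and with TGF-beta. PMEPA1, SMAD7 and SKIL lie higher with TGF-beta in both backgrounds in each of their kept sets, the SMAD3 sets lie lower, and the brightest sets of SMAD2 and SKI differ by at most 0.10 on the log2 scale with TGF-beta.

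PMEPA1 gave the steepest response. Its brightest set, 222449_at, read 8.19 in vector, 89.8 in vector with TGF-beta, 6.63 in DLC1 and 81.0 in DLC1 with TGF-beta. Both treated arrays lie far above both untreated ones, and the log2 differences of 3.45 and 3.61 rank 2 of 13137 genes in each background. The set 222450_at read 1.48, 28.4, 1.64 and 28.7 in the same order. Its differences of 4.26 and 4.13 are the highest of all 24399 kept probe sets in each background. The dimmer 217875_s_at read 0.46, 4.51, 0.47 and 4.13, with differences of 3.29 and 3.14. The 3 sets therefore went the same way and differed in size.

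SMAD7, the inhibitory SMAD that blocks the receptor, was measured by a single probe set, 204790_at. It read 1.0 in vector, 4.92 in vector with TGF-beta, 0.85 in DLC1 and 3.65 in DLC1 with TGF-beta. Its log2 differences of 2.30 and 2.10 rank 21 and 19 of 13137 genes. The other inhibitory SMAD, SMAD6, which is better known as a brake on BMP signalling, stayed within 2-fold. Its brightest set, 207069_s_at, read 1.41 in vector, 1.69 in vector with TGF-beta, 1.28 in DLC1 and 1.78 in DLC1 with TGF-beta, log2 differences of 0.26 and 0.48. The only other kept SMAD6 set, 213565_s_at, lay at the edge of the filter, at 0.32, 0.39, 0.38 and 0.38. SMAD7 passed 2-fold in both backgrounds and SMAD6 in neither.

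SKIL rose and its relative SKI did not. The brightest SKIL set, 225227_at, read 3.45 in vector, 10.9 in vector with TGF-beta, 2.84 in DLC1 and 7.59 in DLC1 with TGF-beta. Its log2 differences of 1.66 and 1.42 rank 52 and 41 of 13137 genes. The SKIL set 206675_s_at read 0.62, 1.62, 0.51 and 1.31 in that order, differences of 1.39 and 1.36. The set 217591_at gave 1.11 and, just short of 2-fold, 0.97. For SKI, 229265_at read 10.3, 10.8, 9.63 and 10.3, differences of 0.07 and 0.10. The dimmer SKI set 204270_at gave 0.43 and 0.30, and 213755_s_at gave 0.10 and -0.23.

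Both ubiquitin ligase genes were higher with TGF-beta by amounts short of 2-fold. SMURF1 in 212666_at read 3.25 in vector, 4.95 in vector with TGF-beta, 3.22 in DLC1 and 4.67 in DLC1 with TGF-beta, a 1.52-fold and a 1.45-fold difference. Its other kept set, 215458_s_at, gave log2 differences of 0.24 and 0.25. SMURF2 in 205596_s_at read 52.6, 76.2, 45.7 and 64.9 in the same order, a 1.45-fold and a 1.42-fold difference. All 4 SMURF2 sets lay above 0, between 0.48 and 0.58 with the vector and between 0.34 and 0.51 with the DLC1 label. The brightest sets of SMURF1 and SMURF2 rank 391 and 475 of 13137 genes with the vector and 358 and 400 with the DLC1 label. These positions lie inside the middle 95% of genes, which ran from -0.62 to 0.67 and from -0.44 to 0.56.

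Of the signal-carrying SMADs, SMAD3 alone lay outside that middle range, on the low side. Its brightest set, 218284_at, read 7.33 in vector, 4.10 in vector with TGF-beta, 4.97 in DLC1 and 3.53 in DLC1 with TGF-beta. The log2 differences with TGF-beta were -0.84 and -0.49, the 162nd and 232nd lowest of 13137 genes. The set 205398_s_at read 2.56, 1.59, 1.74 and 1.34 in the same order and gave -0.69 and -0.38, and the dim 205397_x_at gave -0.25 and -0.28. In all 3 kept SMAD3 sets the untreated vector array was the highest and the treated DLC1 array the lowest, a span of 1.05 on the log2 scale in the brightest set. SMAD2, the other receptor-activated SMAD, read 15.9 in vector, 16.3 in vector with TGF-beta, 14.1 in DLC1 and 14.5 in DLC1 with TGF-beta in 203075_at. Its differences with TGF-beta were 0.03 and 0.04, and its 4 other kept sets lay between -0.15 and 0.06. SMAD4, the common partner, read 5.73, 6.67, 7.16 and 7.30 in 202527_s_at, differences of 0.22 and 0.03. The dim SMAD4 set 1565703_at went the other way, at -0.20 and -0.38.

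**Figure D2:**
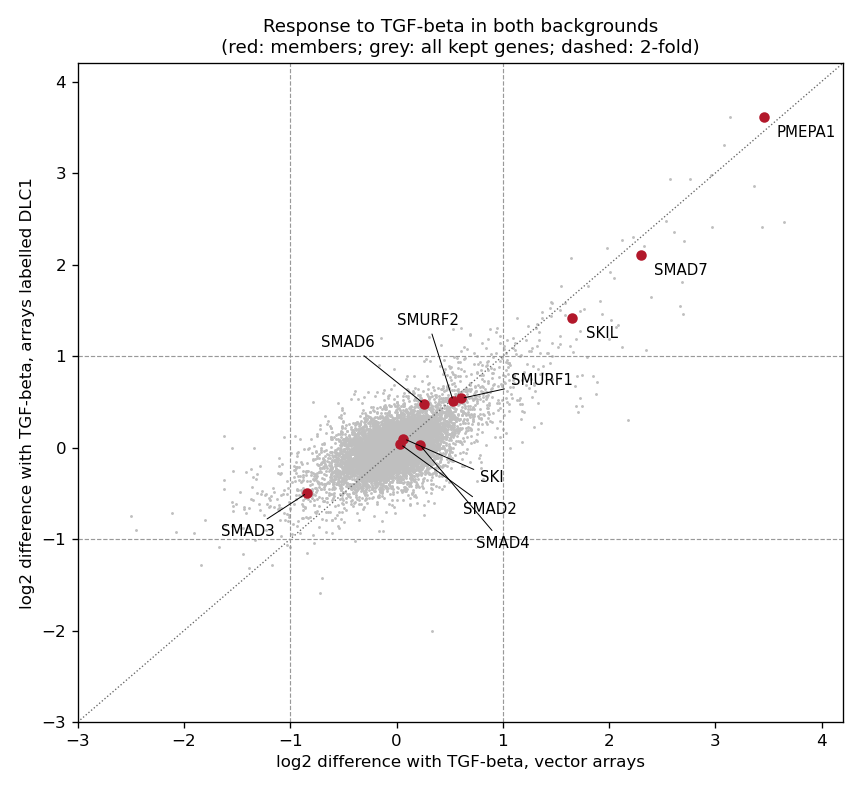
Log2 difference with TGF-beta in the vector arrays (x axis) against that in the arrays labelled DLC1 (y axis) for 13137 kept genes in grey and the 10 members in red, with dashed lines at 2-fold and a dotted line of equal response. PMEPA1, SMAD7 and SKIL lie beyond 2-fold on both axes, SMURF1 and SMURF2 lie between 0.51 and 0.61, and SMAD3 lies at -0.84 and -0.49.

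The interaction, which subtracts the response to TGF-beta seen with the vector from that seen with the DLC1 label, asks whether the response differed between backgrounds. No member passed 2-fold, where 0.365% of genes did. The 10 values ran from -0.24 for SKIL to 0.34 for SMAD3, inside the middle 95% of genes, -0.47 to 0.53. SMAD7 gave -0.20 and PMEPA1 0.16, but the PMEPA1 sets 222450_at and 217875_s_at gave -0.14 and -0.16. SMAD3 gave 0.34 and 0.31 in its brighter sets and -0.03 in 205397_x_at. With 1 array a group these values have no error, and the differences between backgrounds were not tested.

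Setting DLC1 against vector asks what the construct does to these regulators. None of the 10 genes and none of the 29 probe sets passed 2-fold in either state. Over all kept genes 3.97% did without TGF-beta and 3.09% with it, and over kept probe sets 4.12% and 3.29%. SMAD3 without TGF-beta, at -0.56, and SKIL with it, at -0.52, were the lowest values by brightest set. With each gene as the mean of its kept sets SKIL gave -0.16 with TGF-beta, above SMAD7 at -0.43 and SMAD3 at -0.28. SMAD3 read 4.97 in DLC1 against 7.33 in vector, a 1.48-fold difference, and 3.53 against 4.10 with TGF-beta, a 1.16-fold difference. All 3 kept SMAD3 sets lay below 0 in both states. SKIL in 225227_at read 7.59 in DLC1 against 10.9 in vector with TGF-beta, and the log2 difference was -0.28 without it. The SKIL set 217591_at went the other way, at 0.49 and 0.34.

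SMAD7 gave -0.23 without and -0.43 with TGF-beta, and PMEPA1 -0.30 and -0.15. The PMEPA1 set 222450_at gave 0.15 and 0.01. SMURF1 gave -0.01 and -0.08, SKI -0.10 and -0.06, and SMURF2 -0.20 and -0.23. SMAD4 was the only gene above 0 in both states, at 0.32 and 0.13, with 0.19 and -0.01 in its set 235725_at. SMAD2 gave -0.17 and -0.16 in its brightest set, while 203076_s_at gave 0.28 and 0.30. By brightest set 9 of 10 genes lay below 0 without TGF-beta and 8 of 10 with it, with medians of -0.19 and -0.16 beside -0.03 and -0.02 over all kept genes. With each gene as the mean of its kept sets the counts were 6 and 7 of 10, and with arrays centred on 11 housekeeping genes 8 and 6. By probe set 14 of 29 lay below 0 without TGF-beta and 18 of 29 with it. As a group the members therefore showed no direction that held across their probe sets.

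**Figure D3:**
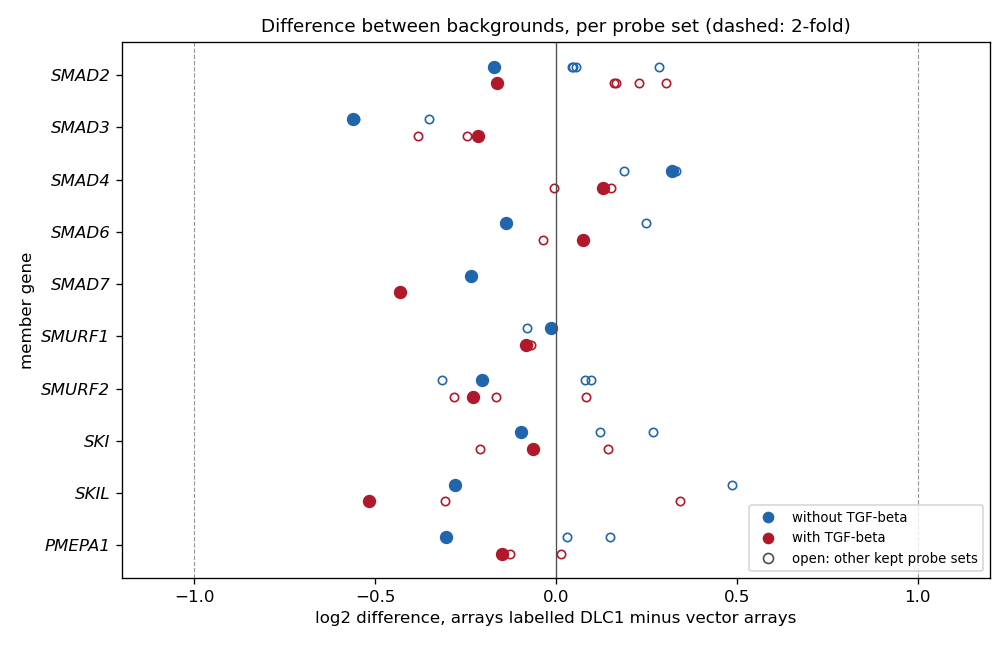
Log2 difference of the arrays labelled DLC1 minus the vector arrays for each kept probe set of the 10 genes, without TGF-beta in blue and with it in red, filled for the brightest set and open for the others, with dashed lines at 2-fold. All points lie between -0.56 and 0.49, and within 1 state or the other, the probe sets of SMAD2, SMAD4, SMAD6, SMURF2, SKI, SKIL and PMEPA1 lie on both sides of 0.

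Other genes of the pathway were read from a list of ligands, receptors, further SMADs, ubiquitin enzymes and nuclear partners. Of 37 listed genes 35 had a probe set with 1 symbol, and 33 were kept. With TGF-beta 1 of the 33 fell and 0 rose with the vector, and 0 passed 2-fold with the DLC1 label, beside 1.9% and 0.898% of all kept genes, so the count is near the background. The one that fell was TGFBR3, which encodes the co-receptor betaglycan. It read 11.8 in vector, 4.43 in vector with TGF-beta, 7.53 in DLC1 and 4.57 in DLC1 with TGF-beta, log2 differences of -1.41 and -0.72. Its other kept set, 204731_at, gave -1.53 and -0.77. Some further genes were chosen after their values were seen. The BMP receptor gene BMPR2 gave 0.96 and 0.67, and the ligand genes TGFB1 and TGFB2 gave 0.81 and 0.75, and -0.37 and -0.71. NEDD4L, a ubiquitin ligase gene related to the SMURFs, was picked in the same way and gave -0.59 and -0.26. The medians of the 33 were 0.08 and 0.07. None of the 33 passed 2-fold between the arrays labelled DLC1 and vector in either state, or in the interaction.

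Of 12 listed SMAD3 target genes 11 were kept. The list was chosen with responders of these same arrays known. Its directions and counts, with TGF-beta, between backgrounds and in the interaction, are therefore a description and no independent evidence. With the vector 9 of these rose and with the DLC1 label 7 did, and 0 fell, beside 1.9% and 0.898% of kept genes past 2-fold. By brightest set TGFBI, COL1A1, COL4A1, LTBP2, ADAM19, NEDD9 and TAGLN passed in both backgrounds. JUNB and BHLHE40 passed with the vector, at 1.22 and 1.85, beside 0.69 and 0.78 with the DLC1 label. Other kept sets of these genes did not all pass. COL1A1 gave 1.75 and 1.68 in 202310_s_at, 0.08 and 0.40 in 202312_s_at and -0.11 and -0.33 in 217430_x_at. TAGLN gave 1.83 and 1.51 in 205547_s_at and 0.15 and 0.28 in 226523_at. ADAM19 gave 0.20 and 0.36 in 221128_at. All 11 lay above 0 by brightest set in each background, with medians of 1.85 and 1.11. TGFBI, which encodes a matrix protein, read 7.15, 35.4, 5.12 and 22.4 in vector, vector with TGF-beta, DLC1 and DLC1 with TGF-beta. Just short of 2-fold was CCN2, the gene of a secreted matrix-associated factor, at 0.996 and 0.98, also named after its values were seen. Between DLC1 and vector, 3 of the 11 passed 2-fold without TGF-beta by brightest set, beside 3.97% of kept genes. ADAM19 at -1.77 and SNAI2, a repressor of epithelial genes, at -1.19 fell, and NEDD9 at 1.0 rose. The ADAM19 value rests on 209765_at, which read 0.51 in vector and 0.15 in DLC1. Its dim set 221128_at gave -0.09 without and 0.07 with TGF-beta. NEDD9 lay exactly at the threshold, from 0.47 to 0.94, and its set 202150_s_at gave 0.30. With TGF-beta ADAM19 and SNAI2 fell, at -1.75 and -1.02, beside 3.09%, and 10 of the 11 lay below 0. In the interaction NEDD9 and BHLHE40 passed 2-fold by brightest set, at -1.02 and -1.06, beside 0.365%. The NEDD9 set 202150_s_at gave -1.08, but the BHLHE40 set 201169_s_at gave -0.20.

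The genes most like a member were taken as the 3 with the smallest distance between log2 profiles over the 4 arrays, each profile centred on its own mean, for the 4 members that spanned 2-fold. With 4 arrays such likeness describes these arrays only. Nearest to SMAD7 were COL4A2, at a distance of 0.12, TGFBI at 0.24 and SLC46A3 at 0.26. Nearest to PMEPA1 were COL1A1 at 0.54, COL4A1 at 0.57 and HTN1 at 0.80. Without TGF-beta HTN1 is dim, at 0.34 in vector and 0.28 in DLC1. Nearest to SKIL were KRT14 at 0.16, PLEK2 at 0.19 and AFAP1L2 at 0.20. Of these KRT14 is dim, at 0.15 to 0.63, and AFAP1L2 read 0.29 to 1.22. Nearest to SMAD3 were PSMB9 at 0.01, LIFR at 0.07 and OSR1 at 0.09, of which OSR1 is dim, at 0.37 to 0.73. Among the members themselves SKIL was the nearest to SMAD7, at rank 15 of 13136 genes, and SMAD7 the nearest to PMEPA1, at rank 11.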

How the data were processed

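Messenger RNA of 4 cultures was measured on 1 array each, grouped by their labels. The deposited values are intensities per probe set on a linear scale with 2 decimals, from 0.05 to 265.58. Per the submitters' processing notes RMA was used (no version or settings given), and what the scale was divided by is unknown. RMA usually gives log2 values, so log2 was taken here before any difference. The equalised distributions, which part by a median of 0.03 on the log2 scale in their upper part, would hide a change shared by most genes.

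Of 42898 annotated probe sets, 41097 have 1 symbol and 1801 several. The other 11777 are unnamed here. A gene was its brightest probe set by the mean of the 4 arrays, kept if its highest value reached 0.38, which left 13137 genes. Named were all members, genes past 2-fold in 2 lists, the genes most like a member and a few said to be chosen after their values were seen. No tests were made, since no group has a replicate. The members and lists were chosen with earlier results of these data known. Promoter windows are RefSeq's, and protein sequences were not used here. Python 3.11.15, numpy 2.4.6, pandas 2.3.3, matplotlib 3.10.9, R 4.3.3 and limma 3.58.1 were used.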

Additional observations from a re-analysis of the deposited data

Results flagged for a closer look

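SMAD6 was singled out because its difference between DLC1 and vector had opposite signs in the 2 states, by more than rounding. It was -0.14 on the log2 scale without TGF-beta, from 1.41 to 1.28 in intensity, and 0.075 with it, from 1.69 to 1.78. The difference between the states was not tested, as each group has 1 array. In the other kept SMAD6 set, 213565_s_at, the values were 0.25 and -0.04.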

How the results depend on the processing

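In each of the 5 comparisons, the counts of member genes, member probe sets and other pathway genes past 2-fold were recomputed under the 8 alternatives that apply, namely no filter, a filter at the 75th percentile, log2 of the value plus 0.1, centring on array medians or on housekeeping genes, cyclic loess, genes as the mean of their kept sets, and probe sets without the suffixes _s_at and _x_at. All 105 recomputed counts stayed within 1.5 times the reported count, and over 345 recomputed values of member genes, by brightest set or mean of sets, none crossed 2-fold in either direction. Many of these counts set 0 against 0. That holds for every count between the backgrounds and in the interaction, and for other pathway genes with TGF-beta and the DLC1 label. A change of filter leaves the brightest set of a gene as it was. The values of member genes with no filter or the filter at the 75th percentile therefore could not differ from those reported. SMAD7 has 1 probe set, so the mean of sets could not move it. By probe set the count of members past 2-fold with TGF-beta went from 7 to 6 with the vector under log2 of the value plus 0.1, and from 6 to 7 with the DLC1 label under centring on array medians. Under the filter at the 75th percentile, which kept 19 member sets, it was 5 with the vector and 5 with the DLC1 label. Without the suffixes _s_at and _x_at, which left 17 sets, it was 5 and 4. With TGF-beta, the log2 difference of PMEPA1 ran from 3.44 to 3.67 with the vector and from 3.59 to 3.65 with the DLC1 label, that of SMAD7 from 2.19 to 2.31 and from 1.98 to 2.14, and that of SKIL from 1.38 to 1.67 and from 1.25 to 1.46. SMAD3 ran from -0.84 to -0.59 and from -0.49 to -0.38. Between the backgrounds, SMAD2, SMAD6, SMURF1 and SKI changed sign without TGF-beta under 1 alternative each, and SMAD2, SMURF1 and SKI with it. The PMEPA1 interaction went from 0.16 to -0.05 with the mean of its kept sets. The interactions of SMAD6, SMURF2 and SKI also changed sign under 1 alternative each, as did the small TGF-beta differences of SMAD2 with the vector and SMAD4 with the DLC1 label. No paired analysis was possible because each group has 1 array and the labels carry no replicate numbers. Leaving out an array would leave its group with no sample.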
